A study of Mus musculus with 9 samples.

Results

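Wnt10a, Map2, Dgkg, Ttn and Cdc14b are 5 of the 41128 genes counted in lymphomas of mice that carry a Bcl6 transgene with both or with a single intact allele of the cohesin gene Smc3. They were taken by name, and the names were chosen by measured values of these same tumors. Map2, Dgkg and Cdc14b were selected on their difference between genotypes in these counts, and Wnt10a and Ttn on levels that ran high in some tumors and low in others. Their genotype differences are therefore given here as a description, and so is whether a gene was past a threshold, with no p-value for any of the 5.

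RNA-seq was performed on 3 Bcl6 tumors (Smc3 wt/wt; Cγ1 wt/cre; IµBcl6) and 6 Smc3/Bcl6 tumors (Smc3 wt/-; Cγ1 wt/cre; IµBcl6), with 1 library per tumor. The IµBcl6 transgene drives Bcl6 in B cells and Cγ1-Cre recombines once B cells take up the germinal center program, so both groups carry the transgene and the recombinase, and the Smc3 allele is lost in the recombined cells only. Bone marrow of these genotypes had been grafted into irradiated hosts that were immunized repeatedly with sheep red blood cells, and the lymphomas were collected when mice were moribund, so that a tumor also holds host cells that survive irradiation. By the labels, tumor 1 of each genotype came from a mesenteric lymph node and the rest from a lymph node, and no ages are given.

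The total count ranged from 10156728 to 16898438 in Bcl6 tumors and from 11618983 to 17774577 in Smc3/Bcl6 tumors. All 9 B-cell markers examined were detected, with a summed level of 2945 to 11387 CPM (counts per 1000000, scaled between libraries by edgeR's TMM method). Smc3, the targeted gene, averaged 104 ± 19.3 CPM (SD, n = 3) over the Bcl6 tumors against 91.4 ± 32.0 CPM (SD, n = 6) over the Smc3/Bcl6 tumors, and its log2 fold change of -0.19 was smaller than its standard error of 0.38. It was lowest in Smc3/Bcl6 tumor 2 with 27.9 CPM against 88.1 to 126 CPM in the other 8 tumors. Smc3/Bcl6 tumor 2 stood apart from the rest, with a Spearman correlation of -0.47 across genes between exon length and its deviation from the other tumors on the log2 scale, against -0.03 to 0.27 in the other 8. The 5 genes are long except Wnt10a, so each of their values in that tumor is also given after a correction for length and GC content. The labels do not say whether tumors came from separate litters or grafts, so the errors measure the spread between these tumors.

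Wnt10a is a secreted Wnt ligand that binds Frizzled receptors and stabilizes beta-catenin, and it is best known from skin appendages and teeth. Map2 binds microtubules and is known mostly from the dendrites of neurons, and Ttn encodes titin, the giant spring protein of the muscle sarcomere. Dgkg is a diacylglycerol kinase, which turns the lipid messenger made after B-cell receptor signaling into phosphatidic acid. Cdc14b is a phosphatase that reverses phosphorylation by cyclin-dependent kinases. None of the 5 is a standard B-cell marker.

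All 5 genes were measured in the 9 tumors and passed edgeR's filter on low counts, which left 14057 genes. Levels per length differed between them, with a mean of 5.55 CPM per kilobase of exon for Wnt10a, 1.25 for Cdc14b, 0.564 for Dgkg, 0.253 for Ttn and 0.160 for Map2. Titin reads were the most numerous of the 5, with 4046 in total over 116825 exonic bases, whereas its level per length was low. A tumor was taken to carry a gene at 1 CPM or more. By that measure Dgkg and Cdc14b were carried by 9 of 9 tumors, Ttn by 8, Wnt10a by 7 and Map2 by 7. The level chosen matters for the low genes: at 0.5 CPM, each of the 5 was carried by 9 tumors. At 2 CPM, Map2 was carried by 3 tumors, the Bcl6 tumors, and the number was as at 1 CPM for the other 4 genes.

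**Figure D1:**
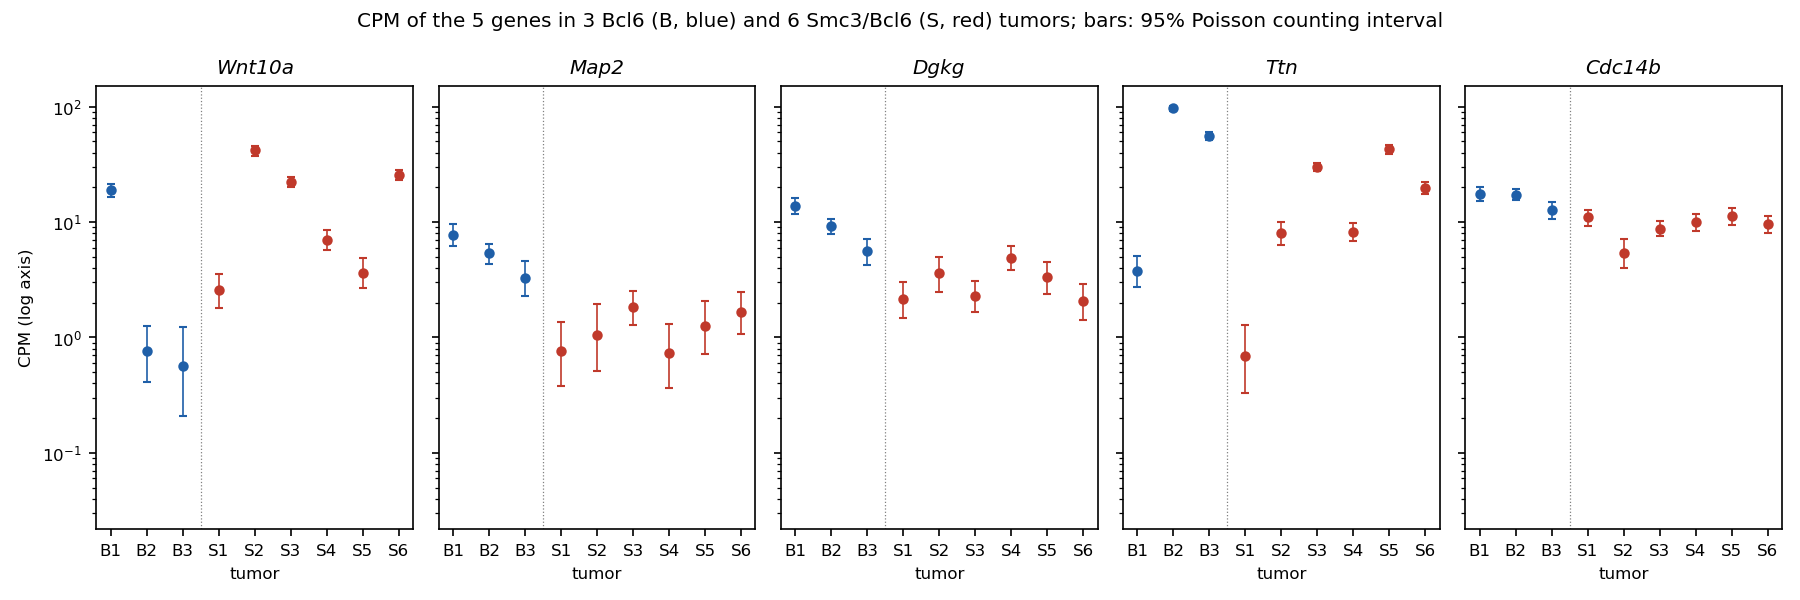
Level of each gene in each tumor in CPM on a log axis, with B1 to B3 the Bcl6 tumors (blue) and S1 to S6 the Smc3/Bcl6 tumors (red), and bars for the 95% Poisson counting interval. Wnt10a ranged from 0.567 to 41.7 CPM and Ttn from 0.694 to 96.4 CPM with both genotypes intermixed, while the 3 Bcl6 tumors lay above the 6 Smc3/Bcl6 tumors for Map2, Dgkg and Cdc14b.

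Promoter sequences from RefSeq (GRCm38.p6) covered 4 of the 5 genes, Map2, Dgkg, Ttn and Cdc14b. They are shown as a description, since Map2, Dgkg and Cdc14b were picked for being lower in Smc3/Bcl6 tumors and Ttn for its spread. Whether these sequences bear on the levels was not tested. Each is read 5′ to 3′ up to the base before the start site, or for Map2 up to the base before the annotated gene, and capitals mark matches on either strand to the CCAAT box with its letters CCAAT, to the GC box with GGGCGG, to the TATA box with TATAA or to the cAMP response element with TGACGTCA. The Map2 stretch is chr1:66175079-66175272 on the plus strand, and the others lie on the minus strand at chr16:22657232-22657481 for Dgkg, chr13:64274989-64275238 for Cdc14b and chr2:76982548-76982797 for Ttn.
Map2: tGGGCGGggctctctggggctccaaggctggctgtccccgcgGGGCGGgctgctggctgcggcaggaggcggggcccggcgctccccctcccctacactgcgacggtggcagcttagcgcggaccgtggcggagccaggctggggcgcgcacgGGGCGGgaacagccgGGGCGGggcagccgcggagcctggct
Dgkg: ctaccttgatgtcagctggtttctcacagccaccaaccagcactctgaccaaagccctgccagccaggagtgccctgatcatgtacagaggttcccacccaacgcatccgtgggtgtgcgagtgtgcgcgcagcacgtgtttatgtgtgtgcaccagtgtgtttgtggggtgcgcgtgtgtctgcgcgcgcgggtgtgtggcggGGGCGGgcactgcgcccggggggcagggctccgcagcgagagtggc
Cdc14b: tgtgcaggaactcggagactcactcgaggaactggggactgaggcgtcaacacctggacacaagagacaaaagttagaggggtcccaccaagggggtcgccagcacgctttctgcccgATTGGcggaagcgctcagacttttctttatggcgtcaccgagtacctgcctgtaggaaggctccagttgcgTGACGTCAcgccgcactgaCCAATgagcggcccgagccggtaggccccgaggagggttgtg
Ttn: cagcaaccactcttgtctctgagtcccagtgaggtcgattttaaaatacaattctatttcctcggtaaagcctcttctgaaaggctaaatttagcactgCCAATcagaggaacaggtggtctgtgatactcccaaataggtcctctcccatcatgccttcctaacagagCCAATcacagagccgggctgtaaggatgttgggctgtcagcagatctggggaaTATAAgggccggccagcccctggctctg
The Map2 stretch held 4 GGGCGG matches and the Dgkg window 1. The Cdc14b window held 2 CCAAT matches and 1 TGACGTCA match, the letters known as the cAMP response element. The Ttn window held 2 CCAAT matches and 1 TATAA match. A second RefSeq window of Cdc14b, not shown, held 1 GGGCGG match, and the window shown lies inside a retained-intron transcript of GENCODE. Among all 32851 windows of 250 bases, 33.8% held CCAAT, 32.7% GGGCGG, 22.8% TATAA and 1.55% TGACGTCA, and the matches are descriptions of letters, not of bound sites.

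Wnt10a (ENSMUSG00000026167.9, chromosome 1 of GRCm38 from 74791516 to 74804179, plus strand) had the highest SD of log2 CPM among the 5, with Ttn close behind. In Bcl6 tumors 1 to 3 it had 214, 14 and 6 counts, or 18.9, 0.756 and 0.567 CPM. In Smc3/Bcl6 tumors 1 to 6 it had 37, 394, 428, 106, 46 and 387 counts, or 2.57, 41.7, 22.4, 7.05, 3.63 and 25.8 CPM. Bcl6 tumor 1 thus sat among the high tumors, next to Smc3/Bcl6 tumors 2, 3 and 6, and the other two Bcl6 tumors were the lowest of the 9, so the genotypes overlapped. The highest tumor was 73.5-fold above the lowest, and the SD of log2 CPM over 9 tumors was 2.16, higher than in 97.4% of the genes tested, whose median was 0.63. The 95% counting intervals of the lowest pair, 0.208 to 1.23 and 0.413 to 1.27 CPM, overlapped, and so did those of 4 of the 8 pairs of neighbours in the order of levels. These intervals cover counting error only.

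Wnt10a averaged 6.73 ± 10.5 CPM (SD, n = 3) over the Bcl6 tumors against 17.2 ± 15.5 CPM (SD, n = 6) over the Smc3/Bcl6 tumors, and its log2 fold change was 1.35 (standard error 1.24.) The spread within each genotype was about as large as the difference. A single Bcl6 tumor decided the size: without Bcl6 tumor 1 the log2 fold change was 4.59 (standard error 1.32). With tumors 1 to 3 of both genotypes paired by number as a replicate block, it was 3.61 (standard error 2.27). The same tumors without the block gave 1.76 (standard error 1.45). Length correction left Smc3/Bcl6 tumor 2 the highest, at 5.00 instead of 5.39 log2 CPM.

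Ttn (ENSMUSG00000051747.9, chromosome 2 from 76703980 to 76982547, minus strand) varied as much as Wnt10a but in other tumors. In Bcl6 tumors 1 to 3 it had 43, 1786 and 594 counts, or 3.79, 96.4 and 56.1 CPM. In Smc3/Bcl6 tumors 1 to 6 it had 10, 76, 577, 124, 540 and 296 counts, or 0.694, 8.04, 30.1, 8.25, 42.6 and 19.7 CPM. Bcl6 tumors 2 and 3, the lowest for Wnt10a, were the highest for Ttn, whereas Bcl6 tumor 1 was second from the bottom, so the genotypes overlapped again. The highest tumor was 139-fold above the lowest, the SD of log2 CPM was 2.15 (higher than in 97.3% of the genes tested), and counting intervals overlapped in 1 of 8 pairs of neighbours.

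Ttn averaged 52.1 ± 46.5 CPM (SD, n = 3) over the Bcl6 tumors against 18.2 ± 15.8 CPM (SD, n = 6) over the Smc3/Bcl6 tumors, and its log2 fold change was -1.51 (standard error 1.02). It was -0.79 without Bcl6 tumor 2, -2.09 without Bcl6 tumor 1 and -0.94 with an offset for length and GC content. With the replicate block it was -2.33 (standard error 0.62) instead, and those tumors without the block gave -2.04 (standard error 1.41). No source says that the numbers are pairs. As the longest gene tested, Ttn was also the member most changed by length correction in Smc3/Bcl6 tumor 2, from 3.03 to 5.74 log2 CPM, which moved that tumor from the third lowest to the second highest.

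Map2 (ENSMUSG00000015222.12, chromosome 1 from 66175273 to 66442583, plus strand) was low in both genotypes and lower in Smc3/Bcl6 tumors. Bcl6 tumors 1 to 3 had 88, 99 and 35 counts, or 7.76, 5.35 and 3.31 CPM. Smc3/Bcl6 tumors 1 to 6 had 11, 10, 35, 11, 16 and 25 counts, or 0.763, 1.06, 1.83, 0.732, 1.26 and 1.67 CPM. The groups did not overlap, although the counting interval of the lowest Bcl6 tumor, 2.30 to 4.60 CPM, reached into that of the highest Smc3/Bcl6 tumor, 1.27 to 2.54 CPM. All 8 pairs of neighbours in the order had overlapping intervals.

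Map2 averaged 5.47 ± 2.23 CPM (SD, n = 3) over the Bcl6 tumors against 1.22 ± 0.457 CPM (SD, n = 6) over the Smc3/Bcl6 tumors, and its log2 fold change was -2.16 (standard error 0.46). After length correction Smc3/Bcl6 tumor 2 rose from 0.26 to 1.77 log2 CPM, above the 1.64 of Bcl6 tumor 3, so that the groups overlapped by that tumor, and the log2 fold change was -1.88. An antisense gene that overlaps its exons, Gm10558, had 23 counts in all tumors together, and the sources used here do not give whether reads were counted by strand.

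Dgkg (ENSMUSG00000022861.11, chromosome 16 from 22468461 to 22657221, minus strand) had 157, 171 and 59 counts in Bcl6 tumors 1 to 3, or 13.8, 9.23 and 5.58 CPM. In Smc3/Bcl6 tumors 1 to 6 it had 31, 34, 44, 74, 42 and 31 counts, or 2.15, 3.60, 2.30, 4.92, 3.32 and 2.07 CPM. The order of the Bcl6 tumors was that of Map2, with tumor 1 highest and tumor 3 lowest. The groups did not overlap, but by a narrow margin, since the counting intervals of Bcl6 tumor 3, 4.24 to 7.19 CPM, and Smc3/Bcl6 tumor 4, 3.87 to 6.18 CPM, overlapped.

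Dgkg averaged 9.55 ± 4.14 CPM (SD, n = 3) over the Bcl6 tumors against 3.06 ± 1.12 CPM (SD, n = 6) over the Smc3/Bcl6 tumors, and its log2 fold change was -1.64 (standard error 0.43). Length correction raised Smc3/Bcl6 tumor 2 from 1.90 to 2.80 log2 CPM, above the 2.44 of Bcl6 tumor 3, and left a log2 fold change of -1.45. Gm15651, an antisense gene whose exons overlap those of Dgkg, had 141 counts in total and its own order of tumors, with 46 in Smc3/Bcl6 tumor 1, where Dgkg was among the lowest, and 1 in Bcl6 tumor 2, where Dgkg was second highest.

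Cdc14b (ENSMUSG00000033102.9, chromosome 13 from 64189268 to 64275290, minus strand) was the steadiest of the 5. Bcl6 tumors 1 to 3 had 199, 320 and 134 counts, or 17.6, 17.3 and 12.7 CPM. Smc3/Bcl6 tumors 1 to 6 had 158, 51, 168, 150, 142 and 143 counts, or 11.0, 5.40, 8.77, 9.98, 11.2 and 9.53 CPM. The groups did not overlap, and its highest tumor was 3.25-fold above its lowest, against 10.6-fold for Map2 and 6.70-fold for Dgkg. The SD of log2 CPM, 0.51, was higher than in 36.3% of the genes tested, and every tumor carried it.

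Cdc14b averaged 15.8 ± 2.75 CPM (SD, n = 3) over the Bcl6 tumors against 9.31 ± 2.12 CPM (SD, n = 6) over the Smc3/Bcl6 tumors, or 10.1 ± 1.01 CPM (SD, n = 5) without Smc3/Bcl6 tumor 2. Its log2 fold change was -0.77 (standard error 0.31), or -0.66 with the offset for length and GC content, under which Smc3/Bcl6 tumor 2 had 3.41 log2 CPM and stayed below the 3.59 of the lowest Bcl6 tumor. Aaed1, on the same strand with exons that overlap those of Cdc14b, had 2463 counts in total, so reads from the shared stretch could not be assigned with certainty.

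**Figure D2:**
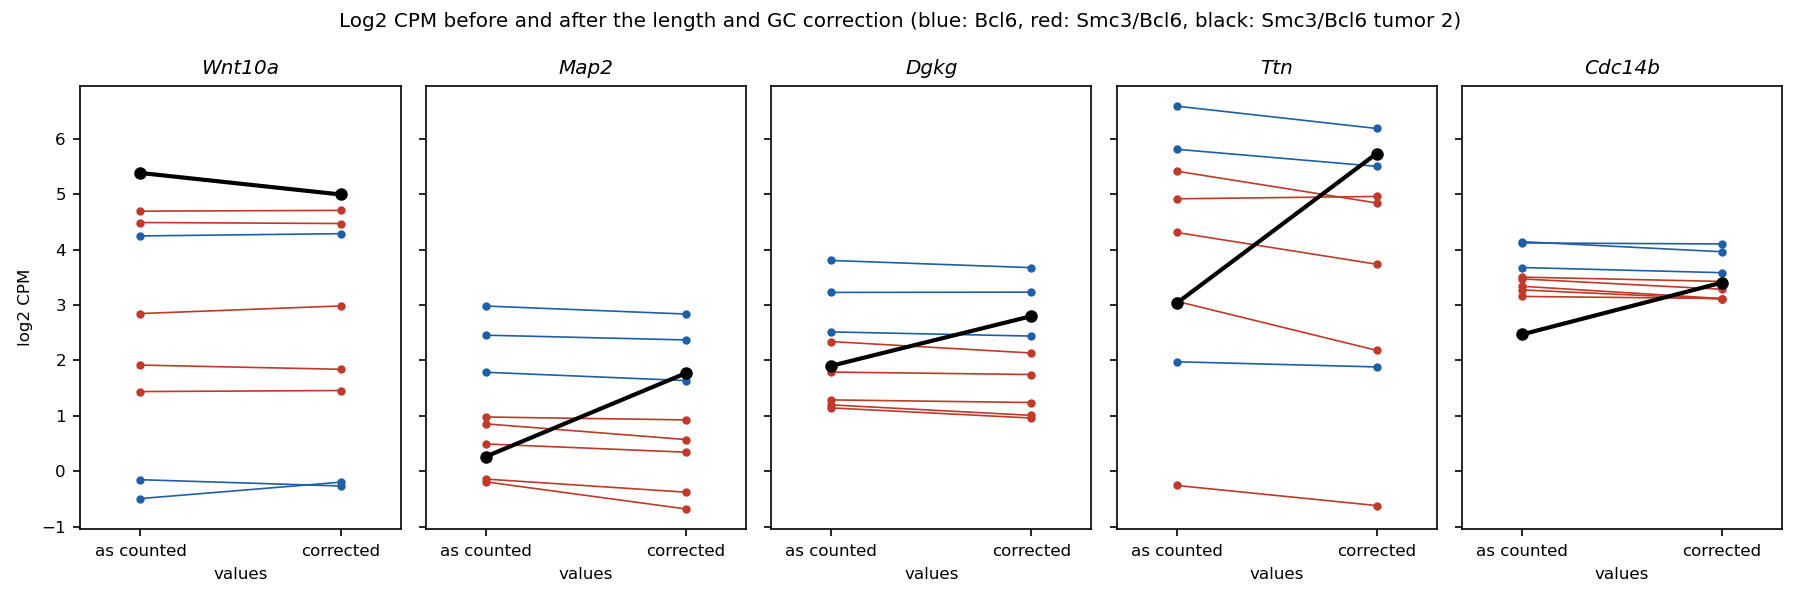
Log2 CPM of each gene in each tumor as counted and after correction for exon length and GC content, with lines joining the values of a tumor (blue, Bcl6; red, Smc3/Bcl6; black, Smc3/Bcl6 tumor 2). The black line rose from 3.03 to 5.74 for Ttn, from 0.26 to 1.77 for Map2, from 1.90 to 2.80 for Dgkg and from 2.47 to 3.41 for Cdc14b, and fell from 5.39 to 5.00 for Wnt10a.

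The thresholds used in the study were an unadjusted p under 0.1 and a log2 fold change beyond 0.56 in either direction. With edgeR's quasi-likelihood test, 3 of the 5 genes were past them, Map2, Dgkg and Cdc14b, each lower in Smc3/Bcl6 tumors, as their choice had fixed. Over the 14057 genes tested, 2.15% passed in either direction, 1.28% higher and 0.868% lower, and 0.199% were lower with groups that did not overlap on log2 CPM. Nothing is read from the share of the 3 genes, which were picked from this comparison. At an adjusted p below 0.05 (Benjamini-Hochberg) edgeR called 0 of the 5 and 0 of all genes, with 79 genes at an unadjusted p below 0.05, and DESeq2 also called 0 of all genes, with 209 at an unadjusted p below 0.05. The median log2 fold change of all genes was 0.06.

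**Figure D3:**
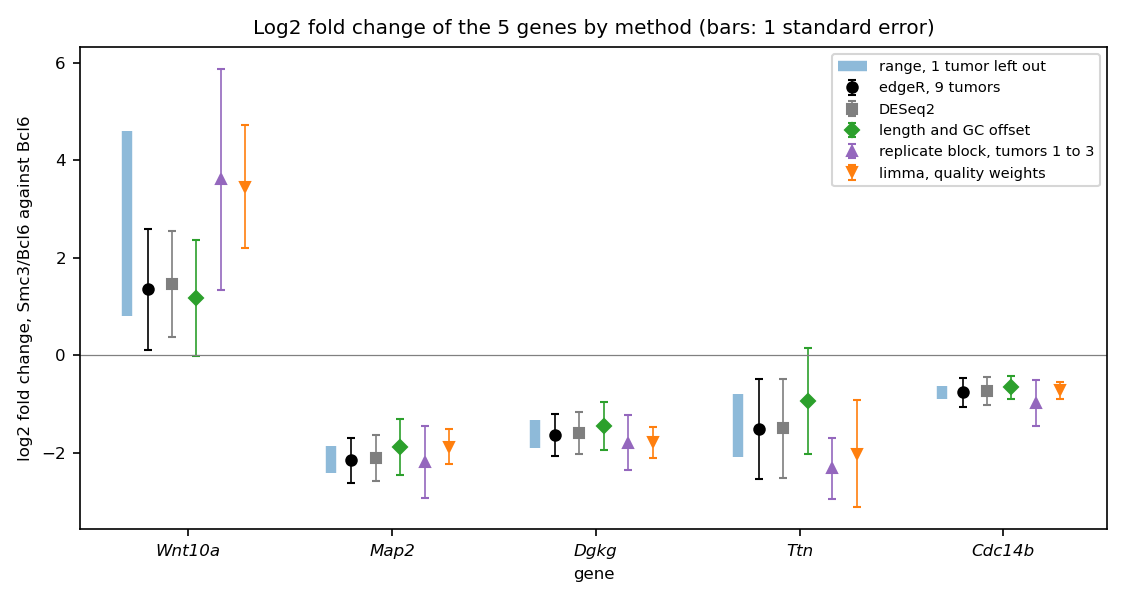
Log2 fold change of Smc3/Bcl6 against Bcl6 tumors for each gene by 5 methods, with bars of 1 standard error and a blue bar for the range when 1 tumor at a time was left out. Map2 stayed between -2.42 and -1.87, Dgkg between -1.92 and -1.33 and Cdc14b between -0.90 and -0.63 over the tumors left out, while Wnt10a ran from 0.81 to 4.59 and Ttn from -2.09 to -0.79.

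The 5 genes did not share a single pattern over tumors. Pearson's r of log2 CPM over the 9 tumors, given as a description, was 0.78 between Map2 and Dgkg, 0.73 between Map2 and Cdc14b and 0.68 between Dgkg and Cdc14b, the 3 genes picked on the same contrast. Ttn had r = 0.37 with Map2, 0.16 with Dgkg and 0.17 with Cdc14b. Wnt10a was negative with the other 4, from -0.59 with Cdc14b to -0.22 with Map2. The points share their libraries. Without Smc3/Bcl6 tumor 2, Dgkg and Cdc14b had r = 0.90, Map2 and Cdc14b 0.82 and Map2 and Dgkg 0.78.

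Light chain variable genes mark a B-cell clone, since a B cell normally expresses a single rearranged light chain. The most counted kappa variable gene was Igkv3-4 in Bcl6 tumors 1 and 2 and Smc3/Bcl6 tumor 3, with 77.5%, 72.1% and 68.4% of kappa variable counts. It was Igkv5-39 in Bcl6 tumor 3 and Smc3/Bcl6 tumors 1, 5 and 6, with 91.6%, 87.9%, 98.2% and 61.4%. Smc3/Bcl6 tumor 2 led with Igkv4-50 (62.8%, followed by Igkv4-57 with 34.0%), and Smc3/Bcl6 tumor 4 with Igkv6-15 at 25.3%, so no gene dominated there. Reads of kappa variable genes may be split with near-identical copies, and the 95% Wilson intervals of these shares were within 1 percentage point. Iglv1 was the most counted lambda variable gene in all 9 tumors and separated none of them.

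With the genotypes pooled, the range of each of the 5 genes in tumors led by Igkv3-4 overlapped its range in tumors led by Igkv5-39. Among the tumors led by Igkv3-4, Wnt10a was high in Bcl6 tumor 1 (18.9 CPM) and Smc3/Bcl6 tumor 3 (22.4 CPM) and near the bottom in Bcl6 tumor 2 (0.756 CPM). Among those led by Igkv5-39 it ran from 0.567 CPM in Bcl6 tumor 3 to 25.8 CPM in Smc3/Bcl6 tumor 6. The same light chain gene thus went with high and with low Wnt10a. Ttn likewise spanned 3.79 to 96.4 CPM in the Igkv3-4-led tumors and 0.694 to 56.1 CPM in the Igkv5-39-led tumors. For Map2, Dgkg and Cdc14b, the Bcl6 tumors lay above the Smc3/Bcl6 tumors with the same leading light chain gene, as must follow where the genotypes do not overlap. With Igkv3-4, Map2 had 7.76 and 5.35 CPM in the Bcl6 tumors and 1.83 CPM in Smc3/Bcl6 tumor 3. With Igkv5-39 it had 3.31 CPM in Bcl6 tumor 3 and 0.763, 1.26 and 1.67 CPM in Smc3/Bcl6 tumors 1, 5 and 6. Within each genotype Map2 was thus higher with Igkv3-4, but the counting intervals of 1.83 and 1.67 CPM overlapped. Dgkg and Cdc14b did not keep that order in Smc3/Bcl6 tumors, with 2.30 and 8.77 CPM in tumor 3 against 3.32 and 11.2 CPM in tumor 5.

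T-cell content differed widely between the tumors. A T-cell score, the mean log2 CPM of 15 T-cell genes, was 3.29, 7.16 and 6.73 in Bcl6 tumors 1 to 3 and 1.84, 6.77, 7.12, 3.34, 5.70 and 2.57 in Smc3/Bcl6 tumors 1 to 6. The summed level of the constant regions of the T-cell receptor, Trac, Trbc1 and Trbc2, was between 177 and 623 CPM in the 5 tumors with the higher scores and between 5.62 and 24.8 CPM in the other 4. In bulk tumors, fewer cells of a type and less RNA per cell cannot be told apart. All 15 genes of the list were detected, and its summed level ranged from 461 to 3740 CPM in Bcl6 and from 146 to 3928 CPM in Smc3/Bcl6 tumors.

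Among the 5 genes, Ttn came closest to the order of the T-cell score. By summed level, stroma markers also matched its highest and lowest tumors, and macrophage markers its lowest tumors only. From the highest score down, Bcl6 tumor 2, Smc3/Bcl6 tumor 3, Smc3/Bcl6 tumor 2, Bcl6 tumor 3 and Smc3/Bcl6 tumor 5 had 96.4, 30.1, 8.04, 56.1 and 42.6 CPM of Ttn, and Smc3/Bcl6 tumor 4, Bcl6 tumor 1, Smc3/Bcl6 tumor 6 and Smc3/Bcl6 tumor 1 had 8.25, 3.79, 19.7 and 0.694 CPM. Smc3/Bcl6 tumor 2 departed from the order as counted. After length correction, which is less sure for a gene this long, its 5.74 log2 CPM of Ttn lay beside Bcl6 tumors 2 and 3 at 6.19 and 5.51. Smc3/Bcl6 tumor 6 departed the other way, with more Ttn than tumors of higher score. No correlation is given, because the scores fall into a high and a low set of fewer than 6 tumors each, and the part of T cells in the Ttn level was not tested. Macrophage markers (8 detected, 284 to 2425 CPM in Bcl6 and 147 to 3008 CPM in Smc3/Bcl6 tumors) were also lowest in Smc3/Bcl6 tumor 1 and Bcl6 tumor 1, the tumors with least Ttn. Elsewhere they ran otherwise, with 1042 CPM in Bcl6 tumor 2, where Ttn was highest. Smc3/Bcl6 tumors 2 and 4 had 3008 and 2153 CPM of them, with 8.04 and 8.25 CPM of Ttn as counted. The 8 stroma markers, all detected, had summed levels of 1.5, 26.8 and 38.0 CPM in Bcl6 tumors 1 to 3 and 4.30, 13.7, 25.7, 13.8, 63.7 and 6.06 CPM in Smc3/Bcl6 tumors 1 to 6. By this sum they were highest in the 4 tumors with most Ttn and lowest in the 2 with least. Dcn alone made up 30.8 of the 38.0 CPM in Bcl6 tumor 3, and 2.06 of the 13.8 CPM in Smc3/Bcl6 tumor 4. By mean log2 CPM, the measure of the T-cell score, Smc3/Bcl6 tumor 4 (0.24) was above Bcl6 tumor 3 (0.14), and the lowest 2 were the same. The part of macrophages and stroma in the Ttn level was not tested either. The 2 tumors with least Ttn are also the only ones labelled as mesenteric lymph node, and the part of the site was not tested.

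**Figure D4:**
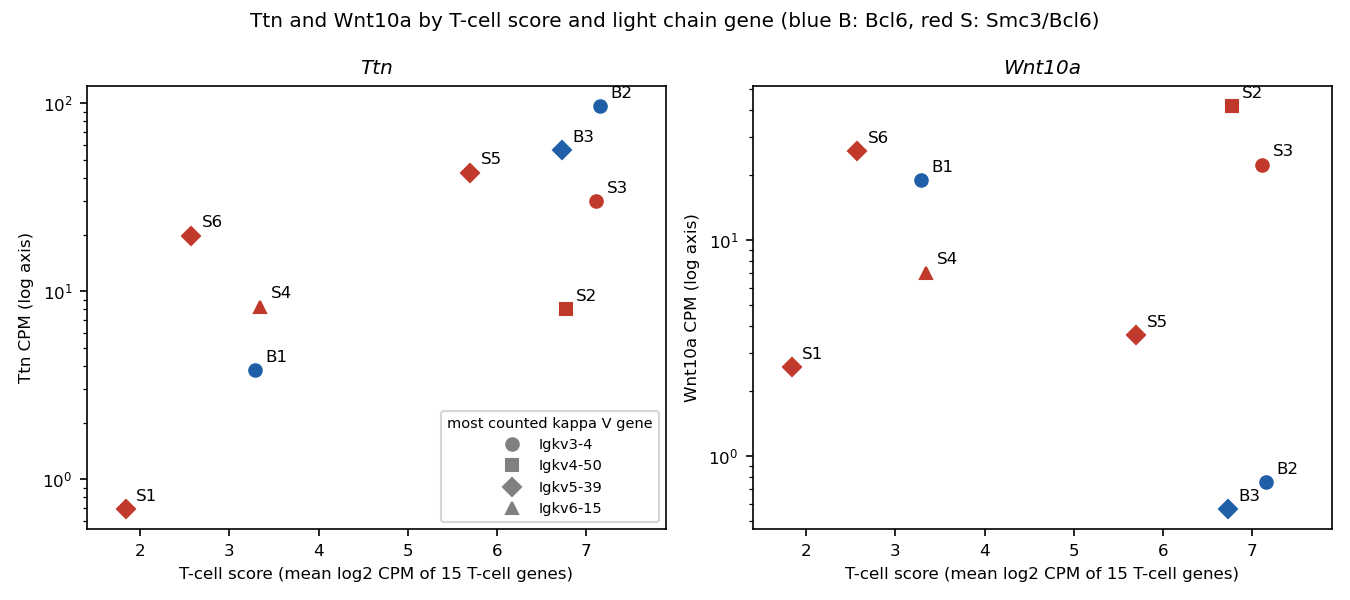
CPM of Ttn and Wnt10a on log axes against the T-cell score of each tumor, the mean log2 CPM of 15 T-cell genes, with blue for Bcl6, red for Smc3/Bcl6 and the marker shape for the most counted kappa variable gene. Ttn was 0.694 CPM at the lowest score of 1.84 and 96.4 CPM at the highest of 7.16, while Wnt10a was 41.7 CPM and 0.567 CPM in the tumors with nearly equal scores of 6.77 and 6.73.

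The other 4 genes did not run with T-cell content. Wnt10a had 41.7 and 22.4 CPM in Smc3/Bcl6 tumors 2 and 3 and 0.756 and 0.567 CPM in Bcl6 tumors 2 and 3, all of them with scores of 6.73 or more. Map2, Dgkg and Cdc14b were each highest in Bcl6 tumor 1, where the score was low at 3.29. In Smc3/Bcl6 tumor 4, with a score of 3.34, they had 0.732, 4.92 and 9.98 CPM.

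Muscle and neuronal markers were examined because titin and Map2 are known from those tissues. Of 28 striated muscle genes, Tnnc2 was at 0 in every tumor and the myosin heavy chains Myh1, Myh2, Myh4, Myh6 and Myh7 had 1, 3, 2, 1 and 3 counts over all tumors. Per length the heavy chains were at or under 0.00337 CPM per kilobase, the muscle actin Acta1 at 0.129 and the creatine kinase Ckm at 0.0523, against 0.253 for Ttn. Other genes of the list were above Ttn per length, with Tnni2, a troponin subunit, at 5.83 CPM per kilobase and 1046 counts, Mylpf, a myosin light chain, at 4.04 and 527, Tnnt3 at 1.84 and 354, and Mybpc2 at 1.49 and 667. The summed level of the list was 23.6 to 44.2 CPM in Bcl6 and 21.6 to 68.5 CPM in Smc3/Bcl6 tumors, so the list was near 0 for some muscle genes and not for others, and the part of muscle RNA in the Ttn level was not tested. Neb, which encodes nebulin, another giant sarcomere protein, was at 2.73, 16.0 and 22.0 CPM over Bcl6 tumors 1 to 3 and at 0.833, 2.01, 13.7, 2.80, 10.4 and 1.27 CPM over Smc3/Bcl6 tumors 1 to 6. Neb was thus highest in the same 4 tumors as Ttn, but low in Smc3/Bcl6 tumor 6, where Ttn was not. Among the genes of neurons and glia examined, Nefl was at 0 in every tumor and Rbfox3, Snap25, Nefm, Stmn2 and Sox10 had 2 to 7 counts in all, while Nefh and Tubb3 were counted more often.

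Genes of the same pathways were compared between genotypes from 8 lists with 162 genes, of which 160 were in the table and 100 were tested. In edgeR's test 1 was past the thresholds higher, Capn3, and 2 lower, Tcf7l2 and Prc1, beside 1.28% and 0.868% of all genes, and the median log2 fold change was -0.05 against 0.06 for all genes. At an adjusted p below 0.05, 0 genes passed in edgeR (1 at an unadjusted p below 0.05) and 0 in DESeq2 (3 at an unadjusted p below 0.05). DESeq2 put 7 of 98 higher and 1 lower past the thresholds, beside 2.49% and 0.735% of all genes in that fit. With the replicate block, 0 of 96 were higher and 6 lower, beside 0.337% and 1.9% of all genes, among them Neb (-1.80), Lef1 (-2.34) and Tcf7l2 (-1.26). In the main fit Neb had -1.39 (standard error 0.92) and Lef1 -1.12 (standard error 1.32), and neither was past the thresholds.

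Among 18 other Wnt ligands, 2 had counts enough to be tested, Wnt10b and Wnt3, and neither was past the thresholds. Wnt10b, the closest relative of Wnt10a, had 0.694 CPM in Bcl6 and 1.41 CPM in Smc3/Bcl6 tumors on average, with a log2 fold change of 1.02 (standard error 0.58), and Wnt3 had -1.12 (standard error 1.44). Wnt6, which neighbours Wnt10a on chromosome 1, had 41 counts in all and 0 in Smc3/Bcl6 tumors 1 and 4. Of 13 receptors, secretion factors and extracellular regulators tested, 0 passed. Of 12 genes of beta-catenin signaling and its targets, 1 was lower, Tcf7l2 (log2 fold change -0.93, standard error 0.39), a transcription factor of the pathway, which was also past the thresholds in DESeq2 and with the replicate block. Axin2, a common read-out of the pathway, had 0.930 CPM in Bcl6 and 0.475 CPM in Smc3/Bcl6 tumors with a log2 fold change of -0.92 (standard error 1.13), less than its standard error.

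Per length, Dgkg was a minor diacylglycerol kinase of these tumors, with a mean of 0.564 CPM per kilobase against 33.8 for Dgkd, 30.5 for Dgka and 18.4 for Dgkz. Dgkd had 229 CPM in Bcl6 and 233 CPM in Smc3/Bcl6 tumors on average. Of the 7 other kinases tested, 0 were past the thresholds, and 0 of 17 genes that act on or downstream of diacylglycerol were. Of 10 microtubule-associated proteins 0 passed. Map4, the highest of them in CPM, had 141 CPM in Bcl6 and 126 CPM in Smc3/Bcl6 tumors. Per length it was at 8.64 CPM per kilobase, below Map7d1 at 11.1. Of 17 titin partners and sarcomere genes, Capn3, a protease that binds titin, was higher in Smc3/Bcl6 tumors by a log2 fold change of 1.17 (standard error 0.58), opposite in sign to Ttn. Capn3 was past the thresholds in DESeq2 (1.22) but not with the replicate block (0.56, standard error 0.66). Of 22 genes of the Cdc14 family and mitotic exit, Prc1, which bundles spindle microtubules at mitotic exit, fell by 0.62 on the log2 scale (standard error 0.33), with 127 CPM in Bcl6 and 82.5 CPM in Smc3/Bcl6 tumors. Prc1 was not past the thresholds in DESeq2 (-0.58, standard error 0.36) or with the replicate block (-0.33, standard error 0.33). Cdc14a, the paralog of Cdc14b, had 46.2 CPM in Bcl6 and 49.7 CPM in Smc3/Bcl6 tumors and a log2 fold change of 0.11 (standard error 0.50), and was past the thresholds in neither direction.

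The genes most like each member by Pearson's r of log2 CPM over 9 tumors were Rgs11, Zfp111 and Pam for Ttn (r = 0.94 each), Brwd3, Smim6 and Mex3b for Cdc14b (0.95, 0.90 and 0.90) and Noa1, Calr3 and Men1 for Wnt10a (0.91, 0.90 and 0.90). Lins, Diap3 and Ccnc were most like Map2 (0.89, 0.87 and 0.86), and Pafah1b1, Lgr5 and Fbxo48 most like Dgkg (0.86, 0.85 and 0.82). These are the highest values among 14057 genes over 9 tumors, and they depended on the measure: by Spearman's rho 1 of the 3 remained for Dgkg and for Ttn and 0 for the other members. Without Smc3/Bcl6 tumor 2, 1 of the 3 remained for Ttn and for Cdc14b, namely Rgs11 and Brwd3, and 0 for the others. Rgs11 followed Ttn with 11.0 CPM in Bcl6 tumor 2, where Ttn was highest, and 0.971 CPM in Smc3/Bcl6 tumor 1, where Ttn was lowest.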

How the data were processed

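Libraries were prepared from 9 tumors with the Illumina TruSeq kit. Per the labels and the study's methods, the authors ran the nf-core RNA-seq pipeline, aligned reads with STAR to mm10 with Gencode transcripts and counted them per gene with featureCounts, and the deposited values are these counts, without normalization. DESeq2 1.28.1 and R 4.0.2 are named in the submitters' processing notes. The table had 0 columns without a sample, and no libraries were duplicates (the lowest chi-square per gene over 36 pairs was 50.3). Positions, exon lengths and GC content were taken from GENCODE M21 (GRCm38), in which 97.9% of the genes and 99.4% of those tested were found.

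Counts were analyzed in R 4.3.3 with edgeR 4.0.16 (TMM, filterByExpr with the genotype as group, a quasi-likelihood fit of 9 tumors with no covariate, and p-values adjusted after Benjamini and Hochberg). A gene was past the thresholds at an unadjusted p under 0.1 with a log2 fold change beyond 0.56 in either direction. Log2 CPM used a prior count of 2, CPM intervals are exact Poisson, and those of light chain shares are Wilson, both at 95%. The length and GC correction was a lowess fit (span 0.3) per tumor. Alternatives were DESeq2 1.42.0, limma 3.58.1 with quality weights, RLE size factors, no filter or 1 CPM in 3 tumors, the tissue label as a covariate, the length and GC offset, a replicate block, and each tumor left out. The fit of tumors 1 to 3 without the block was added after seeing the data. The fits were tested on simulated data.

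Groups and replicate numbers came from the labels. Across genes, tumors of equal number deviated from their genotype's mean together, with correlations of 0.443, 0.113 and 0.155, each over 0.1. On that basis the numbers were treated as pairs in the replicate block, an alternative to the main fit. The 6 pairs of unequal number ran from -0.454 to 0.356, and Smc3/Bcl6 tumor 3 correlated more with Bcl6 tumor 2 than with Bcl6 tumor 3. Tumor 1 of each genotype shares the label of mesenteric lymph node, so number and site cannot be told apart in the correlation of 0.443. No source says what else an equal number shares, so the block is not a stated part of the design. The members and gene lists were chosen with earlier results of these data known. Named genes are the 5 members, the 3 genes with the highest Pearson's r to each, list genes past the thresholds or else up to 4 with the highest CPM, near relatives or neighbours, and leading or absent markers. Axin2, Lef1 and Wnt3 were chosen after their values were seen. A marker gene of the list for neurons and glia, and the summed level of that list, are not reported here.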

Additional observations from a re-analysis of the deposited data

Results flagged for a closer look

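Among 6 measures examined over the 6 Smc3/Bcl6 tumors, the 5 genes and the T-cell score, 1 had a tumor far from the others. Cdc14b in Smc3/Bcl6 tumor 2 was the lowest, at 2.47 log2 CPM, and its gap to the nearest tumor made up 0.663 of the range of the group, above Dixon's 95% critical value for 6 samples. Chance alone flags about 1 in 20 such groups. Corrected for length and GC content, that tumor had 3.41 log2 CPM of Cdc14b, inside the 3.11 to 3.43 of the other 5. Without it the log2 fold change of Cdc14b was -0.63 (standard error 0.20).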

How the results depend on the processing

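No log2 fold change of the 5 genes changed sign under any of the alternatives run. Map2 and Dgkg were past the thresholds in each of them, and Cdc14b in each except the replicate block combined with the offset for length and GC (-0.63, standard error 0.38). These genes were picked on this contrast and the fits share their tumors, so nothing is read from how often they passed. Of the 5 genes, 3 passed as reported, 5 with limma and a quality weight per tumor, and 3 to 5 when each tumor was left out, with 5 reached without Bcl6 tumor 1. Over all genes, 302 of 14057 passed as reported, 1644 of 14057 with limma's weights and 366 of 14637 without Bcl6 tumor 1. Wnt10a passed with limma's weights (3.46) and without Bcl6 tumor 1 (4.59). Ttn passed with those weights (-2.02), with the tissue label as a covariate (-1.95), paired by the replicate block (-2.33), by the block and that offset together (-1.05), and without Bcl6 tumor 1 (-2.09) or Smc3/Bcl6 tumor 5 (-1.96). The cause of these changes was not tested.

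Over all genes, 302 were past the thresholds (180 higher and 122 lower). There were 1388 with no filter on low counts, 1644 with limma's weights and 159 to 624 with each tumor left out, namely 159 without Smc3/Bcl6 tumor 6, 533 without tumor 2 and 624 without tumor 3. DESeq2 gave 342 higher and 101 lower, and the replicate block 45 higher and 254 lower. Without the block, tumors 1 to 3 gave 168 higher and 88 lower. The number of tumors carrying Map2 was 7, 9 at 0.5 CPM and 3 at 2 CPM. In T-cell content, Smc3/Bcl6 tumor 2 had rank 3 by the score and rank 1 by the summed T-cell receptor genes. Low counts limit Map2 most, with 10 to 35 counts in each Smc3/Bcl6 tumor, and the wide spread between tumors limits Wnt10a and Ttn.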
